A study of Homo sapiens with 4 samples.

Results

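The S-phase and mitosis genes followed here are 48 protein-coding genes of the cell division cycle, chosen by name, of 34500 genes to which the transcripts of the tables could be assigned. This and the other gene lists were chosen with earlier results of these data known, so counts of their genes below are descriptions. The 48 fall into 24 genes of the G1/S transition and S phase and 24 genes of G2 and mitosis, and all 48 passed the filter on low counts. The study measured RNA by sequencing in MCF10A, a human breast epithelial line that grows without limit but forms no tumours, and asked which transcripts respond to TGF-β1. The 2 groups held 2 libraries each, one from cells given 5 ng/ml of TGF-β1 for 1.5 h and the other from control cells at 0 h. Cells of both groups stably carried a scramble shRNA, designed to silence no gene, and were grown with EGF, insulin, hydrocortisone, cholera toxin and horse serum. The libraries of each group are numbered 1 and 2 and are called biological duplicates in the labels, which do not say whether a shared number marks a shared day or culture. All p-values therefore measure only the spread between these libraries.

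A cell that commits to division first builds D-type and E-type cyclins, whose kinases inactivate the retinoblastoma protein and release E2F transcription factors. E2F raises the genes that license origins, copy DNA and supply nucleotides, many of which carry E2F letters near their start. Genes of G2 and mitosis come on later, through the MuvB complex with B-MYB and FOXM1, which reaches promoters with a CHR element, often beside CCAAT boxes bound by NF-Y. In epithelial cells TGF-β is known to hold the cycle in G1, with lower MYC and more of the kinase inhibitors p15 and p21 as early steps.

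The 4 libraries held 40461473 and 35737659 estimated counts in TGF-β1 replicates 1 and 2, and 40792300 and 36693330 in control replicates 1 and 2. In both groups replicate 2 differed from replicate 1 in ways no label names. Messenger RNAs of ribosomal proteins took 9.76% of gene counts in TGF-β1 replicate 2 and 9.50% in control replicate 2, against 7.42% and 7.45% in the libraries numbered 1. The mRNA of PHF8, a histone demethylase whose overexpression the labels' protocol mentions, was at 3.998 and 3.88 CPM in TGF-β1 and control replicate 2, against 19.99 and 20.2 CPM in TGF-β1 and control replicate 1 (CPM are counts scaled to library size). Epithelial markers were present in every library, with 2023 to 2385 TPM of KRT5 and 76.9 to 109.6 TPM of CDH1 (TPM are counts corrected for transcript length and library size). The 8 markers of blood, endothelial and fibroblast cells summed to 28.5 and 27.1 TPM in TGF-β1 replicates 1 and 2, against 21.6 and 20.4 TPM in control replicates 1 and 2. CD3E was listed at 0 in all 4, and 2 of the 8 had 0 counts in each library but control replicate 2, where 1 had. The highest marker of each library held most of its sum. These maxima were 19.0 and 21.3 TPM in TGF-β1 replicates 1 and 2, and 17.7 and 17.2 TPM in control replicates 1 and 2. The median of the 8 lay between 0.16 and 0.26 TPM.

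All 48 genes were well above the lowest values of the tables, between 3.11 and 358 TPM and between 278 and 23801 counts in a library. Levels in this and the next paragraph are means over the 4 libraries. Among the G1 cyclins and E2F regulators, CCND1, the D-type cyclin that answers to growth factors, led with 163 TPM. The other 5 were low. CDC25A, a phosphatase that activates cyclin-dependent kinases, had 22.1 TPM, CCNE2 and CCNE1, the E-type cyclins, 11.5 and 8.80 TPM, and the activators E2F1 and E2F2 10.3 and 4.06 TPM. Origin licensing genes load the MCM helicase. Its subunits had 119 (MCM7), 105 (MCM4), 85.9 (MCM5), 83.4 (MCM3), 56.5 (MCM2) and 30.2 TPM (MCM6), and the loaders CDC6 and CDT1 had 33.4 and 28.8 TPM. At the replication fork, PCNA, the sliding clamp of the DNA polymerases, had the highest mean of all 48, 277 TPM. FEN1, which trims Okazaki fragments, had 44.1 TPM, the helicase cofactors CDC45 and GINS2 25.8 and 16.8 TPM, and CLSPN, a checkpoint mediator that travels with the fork, 15.2 TPM. The ribonucleotide reductase subunits RRM2 and RRM1 had 125 and 103 TPM and TYMS, which makes thymidylate, 22.3 TPM. SLBP, which binds histone mRNA, had 69.5 TPM and UHRF1, which brings DNA methylation to newly copied DNA, 37.97 TPM.

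The G2/M genes were led by CCNB1, the cyclin that drives entry into mitosis, with 269 TPM. Its kinase CDK1 had 131 TPM, and the cyclins CCNA2 and CCNB2 had 90.8 and 79.7 TPM. Among the kinases of the spindle and of chromosome attachment, AURKA had the highest level, 107 TPM, followed by 47.5 TPM of BUB1, 46.7 TPM of AURKB, 38.7 TPM of BUB1B and 37.3 TPM of TTK. UBE2C and CDC20, partners of the anaphase-promoting complex, had 180.1 and 157 TPM. Genes of the spindle and of cytokinesis ranged from 34.2 TPM of the kinesin KIF11 to 119 TPM of ANLN, the scaffold of the cleavage furrow. Between them lay the microtubule-binding NUSAP1 (104 TPM), the kinesin KIF20A (92.8 TPM), TPX2, the activator of AURKA (80.1 TPM), HMMR, a hyaluronan receptor also found on spindles (55.3 TPM), and KIF23, a kinesin of the central spindle (49.5 TPM). The kinetochore proteins CENPF and CENPE had 66.5 and 18.99 TPM, and BIRC5 and CDCA8, partners of AURKB in the chromosomal passenger complex, 56.3 and 18.5 TPM. TOP2A, the topoisomerase that untangles sister chromosomes, had 105 TPM and MKI67, the Ki-67 protein that coats mitotic chromosomes, 23.2 TPM.

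**Figure D1:**
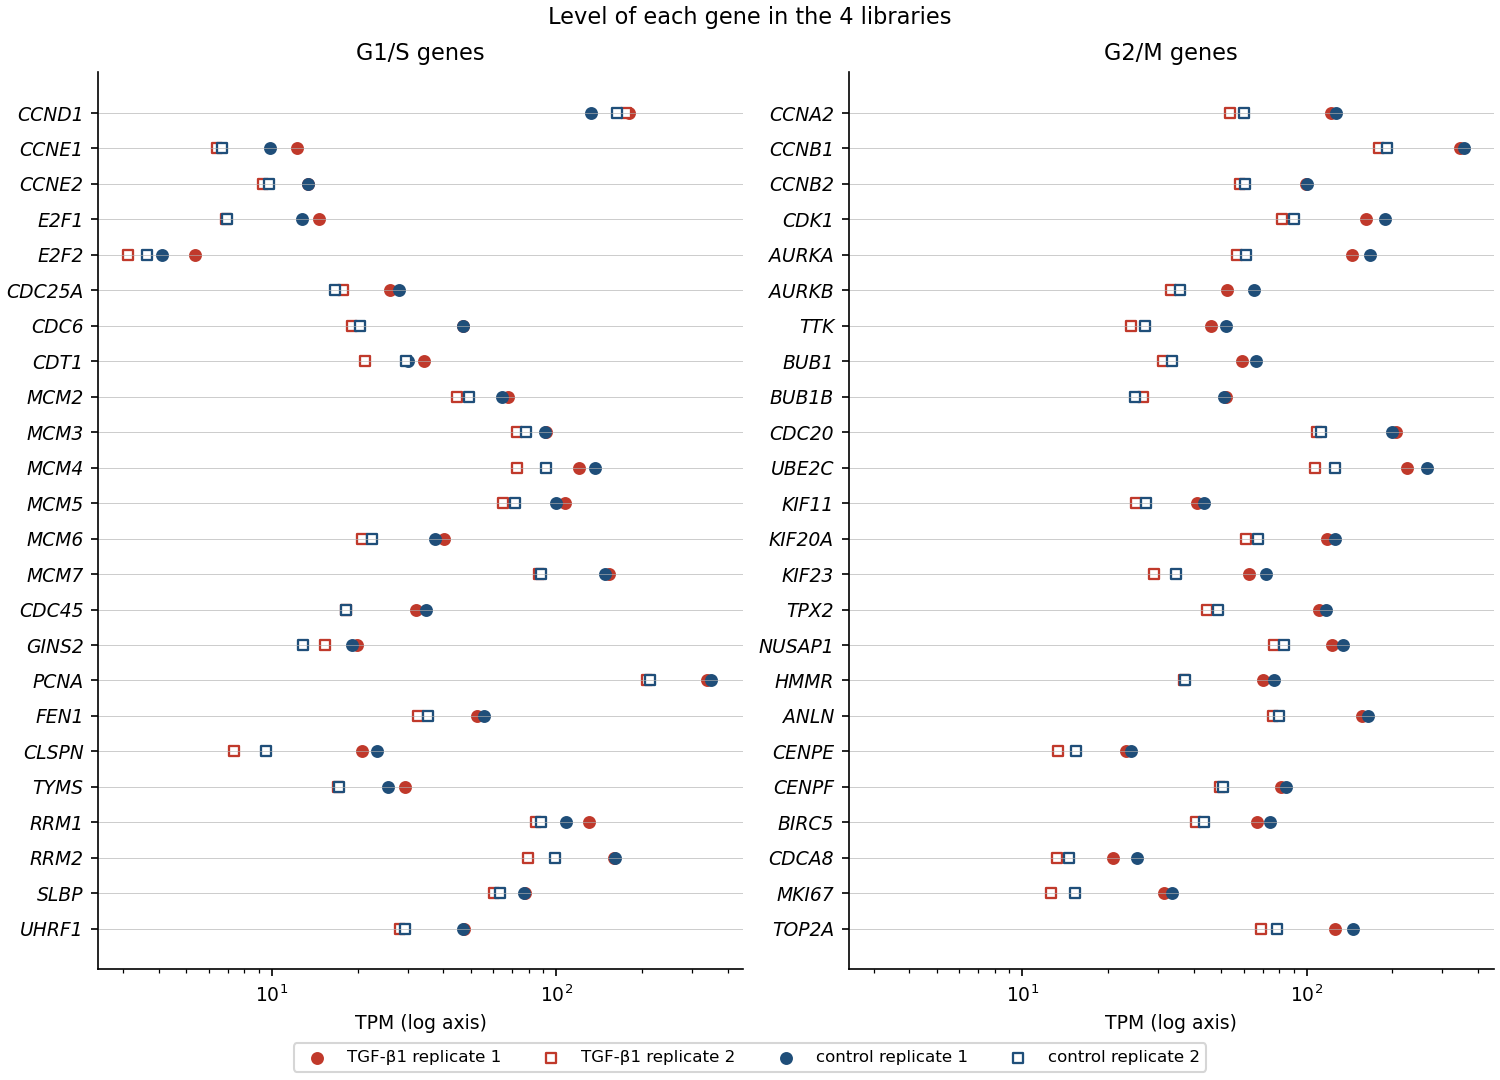
Level of each gene in the 4 libraries, in TPM on a log axis, for the 24 G1/S genes (left) and the 24 G2/M genes (right); red marks TGF-β1, blue control, filled circles replicate 1 and open squares replicate 2. For 47 genes both open squares lie left of both filled circles, and CCND1, with 181 and 175 TPM after TGF-β1 against 133 and 164 TPM in the controls, is the exception.

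The G1/S and the G2/M genes carried different letters near the transcription start. RefSeq promoters (GRCh38.p14, 250 bases before to 50 bases after a start) were given for 39 of the 48 genes, 20 G1/S and 19 G2/M. MCM4, MCM5, CCNE2, CCND1, TPX2, TTK, AURKA, UBE2C and BIRC5 had no entry. E2F letters (TTTCCCGC, TTTGGCGC, TTTCGCGC or TTTGCCGC, either strand) stood in 14 of 20 G1/S promoters (70.0%) and 2 of 19 G2/M promoters (10.5%), against 3.99% of 27305 genes with a promoter. CHR letters (TTTGAA or TTCGAA) stood in 2 of 20 G1/S promoters (10.0%) and 14 of 19 G2/M promoters (73.7%), against 19.5% of all. CCAAT letters stood in 65.0% of the G1/S and 84.2% of the G2/M promoters, against 39.7%. A gene counted when any of its listed starts held the letters. The 2 G2/M genes with E2F letters were CDK1 and NUSAP1, and the 2 G1/S genes with CHR letters were MCM6 and RRM1. In the other replication genes the E2F letters stood in 48.4% and the CHR letters in 9.68%, and in the other mitosis genes in 7.5% and 77.5%. Such matches are a description of these letters in these windows, not of binding.

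**Figure D2:**
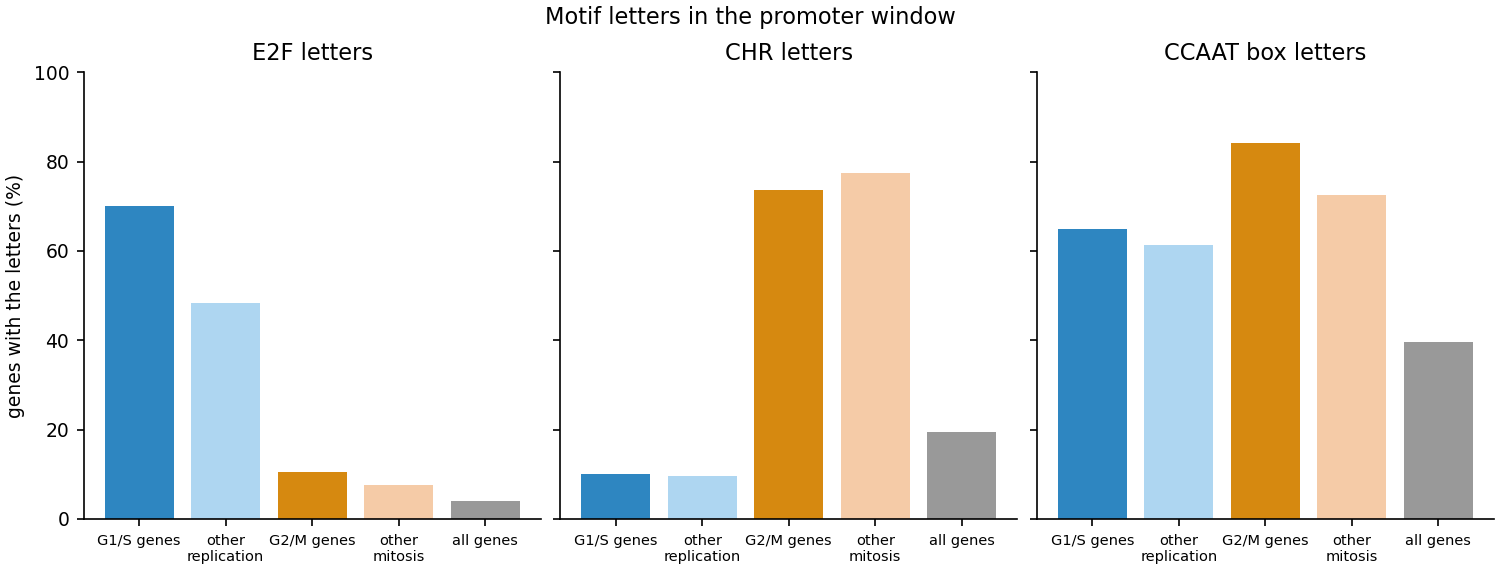
Share of genes (%) with E2F, CHR or CCAAT letters in the promoter window, for the G1/S genes, the other replication genes, the G2/M genes, the other mitosis genes and all genes with a promoter. E2F letters reach 70.0% in the G1/S genes and CHR letters 73.7% in the G2/M genes, while the CCAAT bars differ less between the gene groups.

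The 150 bases before the start are shown for 3 G1/S and 2 G2/M genes. They were taken in order of the replicate fold, where these bases held the list's own letters (E2F or CHR) and no annotated exon. All but E2F2, which holds E2F letters alone, hold more than 1 kind of the letters. Capitals mark E2F, CHR and CCAAT letters on either strand, and every sequence reads 5′ to 3′ along the gene. In MCM6 the letters TTTGGCGCGAAA hold TTTGGCGC on the gene's strand and TTTCGCGC on the other, so these matches overlap. In MKI67 the second CHR shares its last base with a CCAAT box on the other strand.
MCM6 (chr2:135876444-135876593, minus strand): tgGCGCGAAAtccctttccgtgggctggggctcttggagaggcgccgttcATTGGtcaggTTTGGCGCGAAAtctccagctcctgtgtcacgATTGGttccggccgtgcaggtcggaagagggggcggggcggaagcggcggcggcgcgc
CDC25A (chr3:48188418-48188567, minus strand): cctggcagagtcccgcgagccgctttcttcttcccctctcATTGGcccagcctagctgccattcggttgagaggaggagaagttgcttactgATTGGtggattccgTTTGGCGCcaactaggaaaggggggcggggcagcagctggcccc
E2F2 (chr1:23531234-23531383, minus strand): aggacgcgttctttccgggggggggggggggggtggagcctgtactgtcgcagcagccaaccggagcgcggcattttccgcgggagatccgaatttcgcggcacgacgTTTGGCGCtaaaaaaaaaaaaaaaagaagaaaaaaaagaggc
MKI67 (chr10:128126424-128126573, minus strand): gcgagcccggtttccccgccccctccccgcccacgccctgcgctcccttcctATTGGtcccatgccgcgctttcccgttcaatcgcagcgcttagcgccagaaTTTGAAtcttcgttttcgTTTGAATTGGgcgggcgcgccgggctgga
KIF11 (chr10:92592980-92593129, plus strand): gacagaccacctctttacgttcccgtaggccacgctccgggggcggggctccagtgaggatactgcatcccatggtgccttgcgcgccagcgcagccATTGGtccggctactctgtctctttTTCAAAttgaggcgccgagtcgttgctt

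Windows of 30 bases around one set of letters (capitals) let the E2F letters of 5 G1/S genes be read against the CHR letters of 5 G2/M genes. In PCNA and TYMS the E2F letters lie on the other strand and so read GCGGGAAA.
E2F1 (chr20:33686387-33686416, minus strand): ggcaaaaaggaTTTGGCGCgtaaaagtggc
MCM7 (chr7:100101388-100101417, minus strand): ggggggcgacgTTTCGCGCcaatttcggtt
PCNA (chr20:5126663-5126692, minus strand): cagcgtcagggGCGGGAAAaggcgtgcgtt
UHRF1 (chr19:4909973-4910002, plus strand): cccgagcccgaTTTCGCGCgccctgagttc
TYMS (chr18:657603-657632, plus strand): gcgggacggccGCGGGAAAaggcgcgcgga
KIF23 (chr15:69414282-69414311, plus strand): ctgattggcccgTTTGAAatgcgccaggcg
ANLN (chr7:36389830-36389859, plus strand): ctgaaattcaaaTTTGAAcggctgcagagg
CDK1 (chr10:60778453-60778482, plus strand): tagcgcggtgagTTTGAAactgctcgcact
BUB1B (chr15:40161034-40161063, plus strand): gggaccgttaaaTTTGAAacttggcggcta
HMMR (chr5:163460598-163460627, plus strand): gggagatttgaaTTTGAAaccggtagggag
The first capital lay 20 bases before the start in E2F1 and 59 in PCNA. For the CHR letters it lay 13 bases before the start in CDK1 and 23 in BUB1B.

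After 1.5 h of TGF-β1, none of the 48 genes passed the test. edgeR's quasi-likelihood test with Benjamini-Hochberg adjustment over 14774 genes called 0 genes at an adjusted p under 0.05 (0% of all tested). At an unadjusted p under 0.05 it had 255 genes (1.73%), with 0 of the 48 among them. DESeq2 called 91 of the 17926 genes to which it gave an adjusted p (0.508%), again with 0 of the 48. Neither fit has a replicate term, so the difference between replicate numbers counts as spread in both. The median standard error (SE) by edgeR was 0.43 for the G2/M genes and 0.32 for the G1/S genes, against 0.22 for all tested genes. Fits with the replicate number as a block are in the closing section. The median log2 fold change of TGF-β1 over control was 0.034 for the G1/S genes and -0.093 for the G2/M genes, beside -0.0054 for all tested genes. Within a replicate number none of the 48 differed by more than 1.29-fold (replicate 1) or 1.24-fold (replicate 2) in CPM with a prior count of 3, while TPM, which also carry transcript lengths, differed by more in single genes such as CCND1 and CDT1.

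CCND1 (GRCh38 in the GENCODE annotation, as are all gene positions below, chromosome 11, 69641087 to 69654474) had 181 and 175 TPM in TGF-β1 replicates 1 and 2, against 133 and 164 TPM in control replicates 1 and 2. Both treated libraries lay above both controls, which held for no other of the 48 genes, while 7.87% of all tested genes showed it and 8.34% showed the opposite order, which 0 of the 48 showed. Its log2 fold change was 0.25 ± 0.17 (SE), with an unadjusted p of 0.208 and an adjusted p of 1.00 by edgeR's quasi-likelihood test. The ratio was 0.36 on the log2 scale within replicates 1 and 0.16 within replicates 2. With the replicate number as a block, added after the data were seen for DESeq2, DESeq2 called it higher (adjusted p = 0.0402) and edgeR did not. The number of all genes called by that DESeq2 fit is in the closing section, and 1 call is no result about the 48 genes.

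CCNE1 and CCNE2 were also among the 6 genes with the smallest p. CCNE1 had 12.3 and 6.39 TPM in TGF-β1 replicates 1 and 2, against 9.87 and 6.68 TPM in control replicates 1 and 2, with an edgeR log2 fold change of 0.20 ± 0.40 (SE). Its treated and control libraries overlapped, and its higher values were those of replicates 1. CCNE2 had 14.1 and 10.2 CPM in TGF-β1 replicates 1 and 2, against 11.6 and 8.19 CPM in control replicates 1 and 2, a log2 fold change of 0.30 ± 0.28. In TPM it had 13.4 and 9.26 TPM in TGF-β1 replicates 1 and 2, against 13.4 and 9.76 TPM in control replicates 1 and 2, so its direction depended on the correction for transcript length (log2 fold change -0.0079 with lengths as an offset). The longer transcript CCNE2-201 had 2.48 and 1.52 TPM in TGF-β1 replicates 1 and 2, against 0.590 and 0.706 TPM in control replicates 1 and 2. The shorter CCNE2-202, the leading one, had 9.05 and 6.23 TPM in TGF-β1 replicates 1 and 2, against 10.1 and 6.17 TPM in control replicates 1 and 2.

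E2F1 had 14.7 and 6.89 TPM in TGF-β1 replicates 1 and 2, against 12.8 and 6.93 TPM in control replicates 1 and 2, and E2F2 had 5.38 and 3.11 TPM in TGF-β1 replicates 1 and 2, against 4.10 and 3.64 TPM in control replicates 1 and 2. In TPM the treated library numbered 1 was the highest of the 4 in both genes and the treated library numbered 2 the lowest. In CPM the lowest library of E2F1 was control replicate 2, with 12.3 CPM against 12.8 CPM in TGF-β1 replicate 2. CDC25A had 25.99 and 17.7 TPM in TGF-β1 replicates 1 and 2, against 28.03 and 16.7 TPM in control replicates 1 and 2. CDC6 had 46.9 and 19.2 TPM in TGF-β1 replicates 1 and 2, against 47.1 and 20.4 TPM in control replicates 1 and 2, so that each treated library lay beside the control of its own number. GINS2 had 19.9 and 15.3 TPM in TGF-β1 replicates 1 and 2, against 19.2 and 12.9 TPM in control replicates 1 and 2, with log2 ratios of 0.096 within replicates 1 and 0.18 within replicates 2. CDCA8 had 20.8 and 13.2 TPM in TGF-β1 replicates 1 and 2, against 25.4 and 14.6 TPM in control replicates 1 and 2 and a log2 fold change of -0.20 ± 0.34 (SE). None of these genes passed the test.

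Within both replicate numbers, 19 of 24 G2/M genes were lower after TGF-β1 than in the control of the same number, 1 (CDC20) was higher in both and 4 went opposite ways. Of the G1/S genes 5 were lower in both, 8 higher in both and 11 opposite. Of all tested genes 28.6% were lower and 26.3% higher in both. These counts rest on 1 library against 1 within each number, have no test, and the genes of a list share the same 4 libraries. The median log2 ratio of the G2/M genes was -0.11 within replicates 1 and -0.045 within replicates 2, and that of the G1/S genes 0.060 and -0.0073. Summed over the 24 G2/M genes, the treated libraries held 0.486% and 0.266% of gene counts in replicates 1 and 2, against 0.534% and 0.287% in the controls. For the G1/S genes the shares were 0.298% and 0.215% in TGF-β1 replicates 1 and 2, against 0.286% and 0.219% in the controls. UBE2C had the lowest edgeR log2 fold change, -0.22 ± 0.50 (SE), and CLSPN the lowest of the G1/S genes, -0.18 ± 0.67. Without a replicate term in the fit, these SE also carry the difference between replicate numbers. Within replicates 1 and 2 the log2 ratios were -0.24 and -0.18 for UBE2C, and -0.20 and -0.14 for CLSPN. Each fit that left out 1 library set the remaining library of that group against libraries of both numbers. The median of the G2/M genes then ran from -0.56 without TGF-β1 replicate 1 to 0.43 without control replicate 1.

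**Figure D3:**
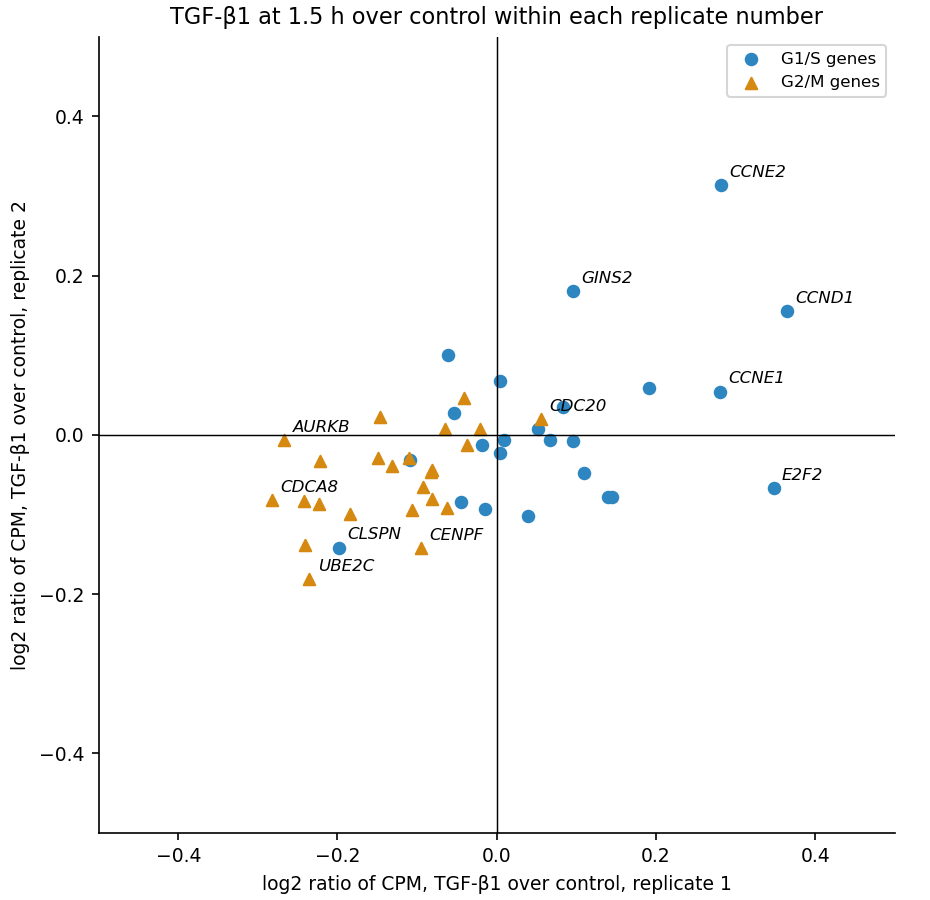
Log2 ratio of CPM, TGF-β1 over control, within replicate 1 (horizontal axis) and within replicate 2 (vertical axis), 1 point per gene, G1/S genes as circles and G2/M genes as triangles. Most triangles lie in the lower left (19 of 24 below 0 on both axes), the circles are spread around 0, and CCND1 and CCNE2 lie farthest to the upper right.

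The list of G1 control genes, which holds regulators of the steps before S phase, had 2 genes with an unadjusted edgeR p under 0.05 of 23 tested. MYC, which promotes growth and entry into S phase, had 78.99 and 143 TPM in TGF-β1 replicates 1 and 2, against 257 and 306 TPM in control replicates 1 and 2 (log2 fold change -1.29 ± 0.37). CDKN1A, the kinase inhibitor p21, had 193 and 161 TPM in TGF-β1 replicates 1 and 2, against 119.7 and 108 TPM in control replicates 1 and 2 (log2 fold change 0.67 ± 0.14). Neither passed edgeR's quasi-likelihood test without a block (unadjusted p = 0.0215 and 0.00710, adjusted p = 1.00 for both), and with the replicate number as a block both did (adjusted p = 0.00455 and 0.000633). CDKN2B, which encodes p15, was listed at 0 TPM in all 4 libraries, control and treated, so its response to TGF-β1 could not be measured. In the other 38 replication genes and 46 mitosis genes edgeR called 0 and had 0 at an unadjusted p under 0.05. Their median log2 fold changes were -0.052 and -0.079, and 23 of 38 and 32 of 46 were lower within both replicate numbers.

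The libraries numbered 2 held less mRNA of nearly all 48 genes than those numbered 1. By edgeR's quasi-likelihood test with Benjamini-Hochberg adjustment, 24 of 24 G2/M genes and 20 of 24 G1/S genes were lower in replicate 2 and none was higher. Each side of this comparison held 1 TGF-β1 and 1 control library, and the main fit has no treatment term. Its p-values and SE, here and below, therefore measure the spread between the treated and the control library of a number. They hold no repeat of a treatment within a number. Of all 14774 tested genes 21.0% were called lower and 16.4% higher. The median log2 fold change of replicate 2 over replicate 1 was -0.87 for the G2/M genes, 1.83-fold lower, and -0.62 for the G1/S genes, 1.54-fold lower, beside 0.0066 for all tested genes. In 47 genes both libraries numbered 2 lay below both numbered 1, as in 36.6% of all tested genes, and in 0 of the 48 both lay above, as in 35.9%. By the fit, 8 of the 48 and 2.92% of all tested genes were at least 2-fold lower in replicate 2. At least 2-fold higher were 0 of the 48 and 748 of the 14774 tested genes. DESeq2 gave the same counts, 24 and 20 lower and 0 higher. In bulk RNA, fewer cells in a phase and less of the mRNA per cell cannot be told apart.

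**Figure D4:**
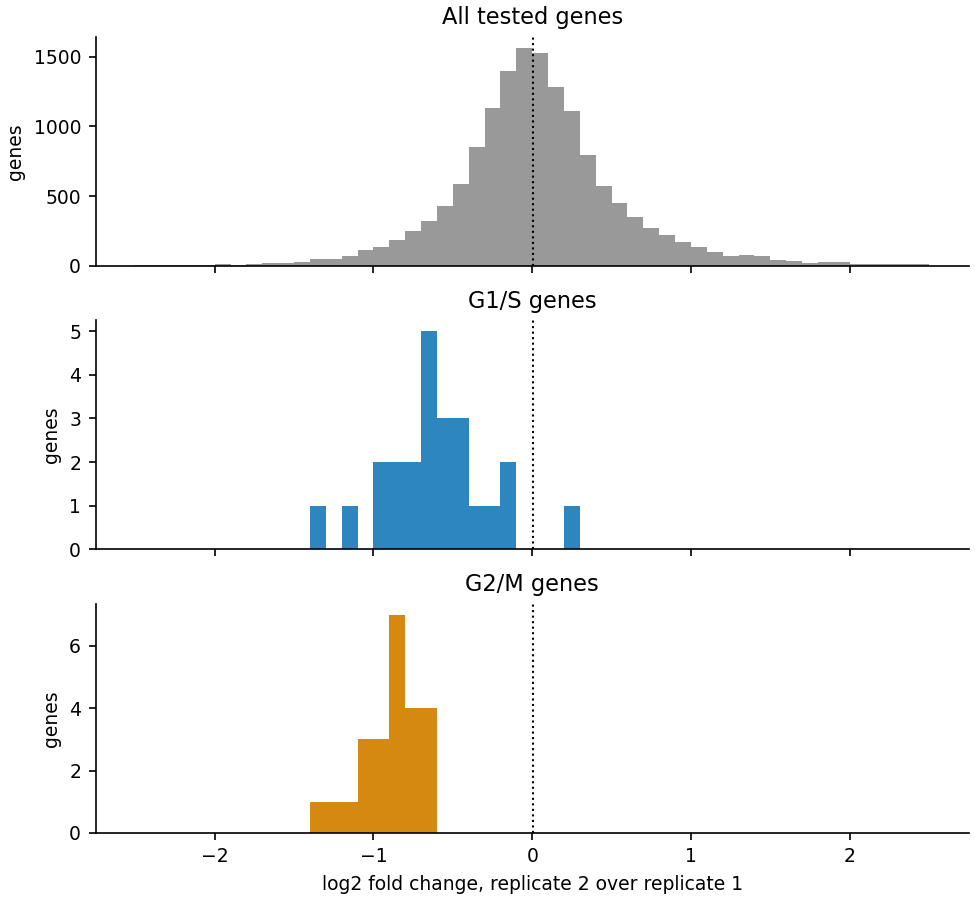
Number of genes by log2 fold change of replicate 2 over replicate 1, for all tested genes (top, drawn between -2.5 and 2.5), the G1/S genes (middle) and the G2/M genes (bottom), with the median of all tested genes dotted. The G2/M genes lie between -1.36 and -0.63, and the G1/S genes spread more widely, between -1.40 and 0.21.

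CLSPN, AURKA and TPX2 had the largest folds of the 48 genes. CLSPN (chromosome 1, 35720218 to 35769967) had 7.34 TPM after TGF-β1 and 9.49 TPM in the control among the libraries numbered 2, against 20.7 and 23.4 TPM among those numbered 1. Its log2 fold change was -1.40 ± 0.092 (SE), 2.63-fold lower (edgeR's quasi-likelihood test, adjusted p = 0.00125). Both treated and control libraries showed the gap. AURKA (chromosome 20, 56369389 to 56392337), the kinase of spindle poles, had 56.7 TPM after TGF-β1 and 61.2 TPM in the control among the libraries numbered 2, against 145 and 167 TPM among those numbered 1 and was 2.57-fold lower. TPX2, which activates AURKA on spindle microtubules, had 44.5 and 48.9 TPM in TGF-β1 and control replicate 2, against 110.1 and 117 TPM in TGF-β1 and control replicate 1, and was 2.33-fold lower. The libraries numbered 2 lay below those numbered 1 without overlap in all 3.

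MKI67 (chromosome 10, 128096659 to 128126385), with the CHR letters shown above, had 12.7 and 15.3 TPM in TGF-β1 and control replicate 2, against 31.4 and 33.7 TPM in TGF-β1 and control replicate 1. Its log2 fold change was -1.18 ± 0.053 (SE, edgeR adjusted p = 0.000907). CDC6 had 19.2 and 20.4 TPM in TGF-β1 and control replicate 2, against 46.9 and 47.1 TPM in TGF-β1 and control replicate 1, and was 2.26-fold lower, the largest fold of the licensing genes. CCNA2, the cyclin that spans S phase and G2, had 53.9 and 60.2 TPM in TGF-β1 and control replicate 2, against 122 and 127 TPM in TGF-β1 and control replicate 1 and was 2.09-fold lower. The other 2 genes with a fold above 2 were UBE2C (2.03-fold lower) and KIF23 (2.05-fold lower).

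**Figure D5:**
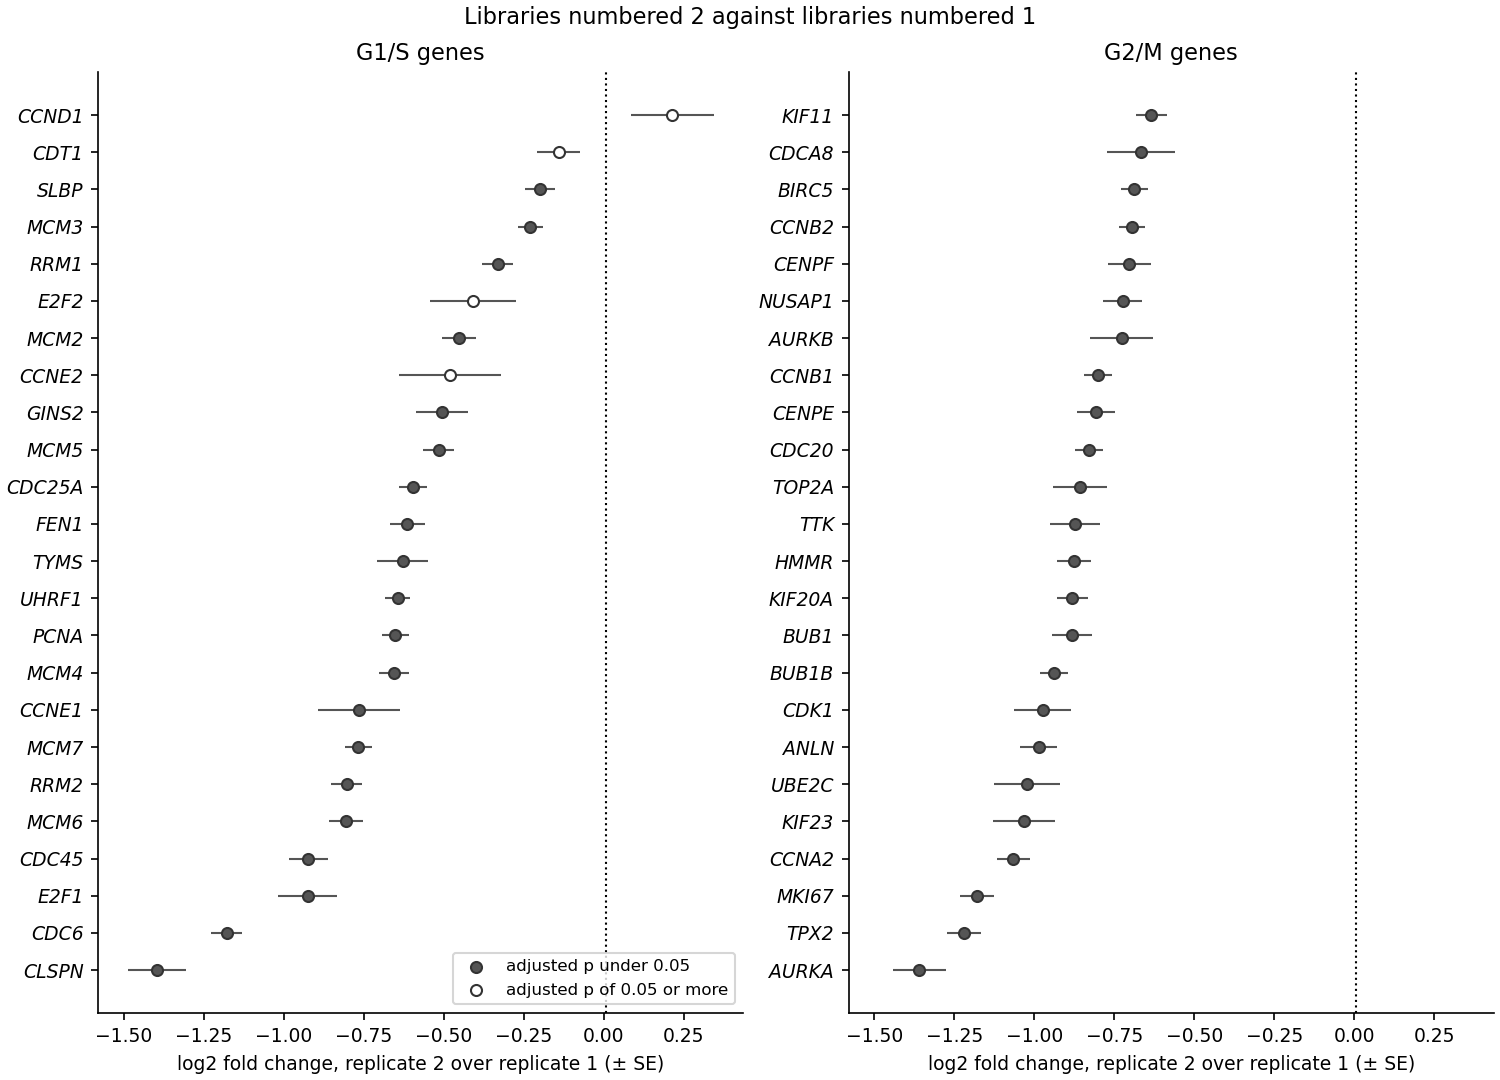
Log2 fold change of replicate 2 over replicate 1 with its standard error, for the G1/S genes (left) and the G2/M genes (right), sorted, with the median of all tested genes dotted; filled points have an adjusted p under 0.05. All 24 G2/M points lie left of the dotted line and are filled, and the open points are CCND1, CDT1, E2F2 and CCNE2.

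By role, all 9 mitotic cyclins and kinases fell in the libraries numbered 2, with log2 fold changes between -1.36 and -0.69. CCNB1 had 179.6 and 191 TPM in TGF-β1 and control replicate 2, against 347 and 358 TPM in TGF-β1 and control replicate 1, and was 1.74-fold lower. Both partners of the anaphase-promoting complex fell, and UBE2C had 107 and 126 TPM in TGF-β1 and control replicate 2, against 224 and 264 TPM in TGF-β1 and control replicate 1. All 7 genes of the spindle and cytokinesis fell, between -1.22 and -0.63. ANLN had 76.01 and 79.7 TPM in TGF-β1 and control replicate 2, against 156 and 165 TPM in TGF-β1 and control replicate 1, a 1.98-fold lower level. The 4 genes of the kinetochore and passenger complex fell by a narrower range, between -0.81 and -0.67. CENPF had 49.6 and 50.8 TPM in TGF-β1 and control replicate 2, against 81.00 and 84.7 TPM in TGF-β1 and control replicate 1. TOP2A had 68.96 and 78.6 TPM in TGF-β1 and control replicate 2, against 126 and 146 TPM in TGF-β1 and control replicate 1, 1.81-fold lower.

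Among the G1/S genes, all 5 of the replication fork fell, between -1.40 and -0.51. PCNA had 208 and 213 TPM in TGF-β1 and control replicate 2, against 338 and 350.0 TPM in TGF-β1 and control replicate 1, and was 1.57-fold lower. All 3 nucleotide genes fell, and RRM2 had 79.6 and 98.9 TPM in TGF-β1 and control replicate 2, against 159 and 161 TPM in TGF-β1 and control replicate 1. Of the 8 licensing genes 7 fell. MCM7 had 86.6 and 88.5 TPM in TGF-β1 and control replicate 2, against 154 and 148 TPM in TGF-β1 and control replicate 1, 1.70-fold lower, whereas CDT1 had 21.2 and 29.5 TPM in TGF-β1 and control replicate 2, against 34.4 and 30.01 TPM in TGF-β1 and control replicate 1 (log2 fold change -0.14 ± 0.067, edgeR adjusted p = 0.161). UHRF1 and SLBP fell, SLBP by the least of the called genes. SLBP had 60.5 and 63.5 TPM in TGF-β1 and control replicate 2, against 77.3 and 76.8 TPM in TGF-β1 and control replicate 1 (log2 fold change -0.20 ± 0.046, edgeR adjusted p = 0.0252).

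Of the 6 G1 cyclins and E2F regulators 3 were called. E2F1 had 6.89 and 6.93 TPM in TGF-β1 and control replicate 2, against 14.7 and 12.8 TPM in TGF-β1 and control replicate 1, and was 1.90-fold lower (edgeR's quasi-likelihood test, adjusted p = 0.00267). CCNE1 fell 1.70-fold and CDC25A 1.51-fold. CCNE2 and E2F2 had log2 fold changes of -0.48 ± 0.16 and -0.41 ± 0.13 and did not pass (edgeR adjusted p = 0.0687 and 0.0687). CCND1 alone had a positive log2 fold change, 0.21 ± 0.13 (edgeR adjusted p = 0.253), and its libraries overlapped. Without TGF-β1 replicate 1 edgeR called CCND1 higher (adjusted p = 0.0279), as it did with treatment as a term (0.0266). With that term edgeR also called CCNE2 and E2F2 lower (adjusted p = 0.00645 and 0.0296), and DESeq2 with the term called neither (0.100 and 0.146), nor SLBP (0.139). Without control replicate 1 edgeR called E2F2 lower (0.0215). With transcript lengths as an offset it called CCNE2 lower (0.0444) and no longer GINS2 (0.0618), and limma on log2(TPM + 1) called CCNE2 lower (0.0200). Calls that ended when 1 library was left out were those of SLBP (adjusted p 0.0851 without TGF-β1 replicate 1, 0.123 without TGF-β1 replicate 2 and 0.128 without control replicate 2), MCM3 (0.0627 without TGF-β1 replicate 2 and 0.0591 without control replicate 2) and CCNE1 (0.0560 without control replicate 2).

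Other genes of the cell cycle were lower in the libraries numbered 2 as well. Of 38 other replication genes edgeR called 35 lower and 0 higher, and of 46 other mitosis genes 43 lower and 1 higher, beside the 21.0% and 16.4% of all tested genes. MYBL2, which encodes B-MYB, had 21.7 and 23.98 TPM in TGF-β1 and control replicate 2, against 68.3 and 67.6 TPM in TGF-β1 and control replicate 1 (log2 fold change -1.51 ± 0.048). The helicase cofactor GINS1 had 9.48 and 9.74 TPM in TGF-β1 and control replicate 2, against 23.8 and 27.7 TPM in TGF-β1 and control replicate 1 (-1.52 ± 0.086). FOXM1 had 15.5 and 17.98 TPM in TGF-β1 and control replicate 2, against 34.6 and 37.9 TPM in TGF-β1 and control replicate 1 (-1.13 ± 0.058). HMGB2, a chromatin protein, was the mitosis gene that rose, with 155 and 167 TPM in TGF-β1 and control replicate 2, against 104 and 121 TPM in TGF-β1 and control replicate 1. The 23 tested G1 control genes went both ways, with 12 lower and 5 higher. The kinase inhibitor CDKN1C rose, with 71.5 and 53.1 TPM in TGF-β1 and control replicate 2, against 29.01 and 15.2 TPM in TGF-β1 and control replicate 1, and CCND2, SKP2, E2F5 and RBL2 rose with log2 fold changes from 0.36 to 0.56. CDK2 fell, with 28.7 and 25.2 TPM in TGF-β1 and control replicate 2, against 55.8 and 59.9 TPM in TGF-β1 and control replicate 1, and so did the E2F repressors E2F7 and E2F8.

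Of the 7 epithelial markers edgeR called 2 lower and 1 higher in the libraries numbered 2, while it called 37.4% of all tested genes in either direction. The 7 epithelial markers summed to 5217 and 4795 TPM in TGF-β1 and control replicate 2, against 7362 and 6830 TPM in TGF-β1 and control replicate 1. Much of that gap lay in the highest marker of each library. It had 2393 and 2122 TPM in TGF-β1 and control replicate 2, against 4259 and 3752 TPM in replicate 1. The median marker had 216 and 220 TPM in TGF-β1 and control replicate 2, against 263 and 238 TPM in replicate 1. KRT17 and CDH1 fell (log2 fold changes -0.77 ± 0.10 and -0.39 ± 0.038) and TP63 rose (0.34 ± 0.060) by edgeR's test. Of the 8 markers of other cell types 5 were tested and 0 passed, and their summed levels were close in both replicate numbers, 27.1 and 20.4 TPM in TGF-β1 and control replicate 2 and 28.5 and 21.6 TPM in TGF-β1 and control replicate 1. These sums were higher after TGF-β1 in both numbers. In the comparison of TGF-β1 with control edgeR called 0 of the 5, with log2 fold changes from -0.22 to 1.07. Both treated libraries lay above both controls in 2 of the 5, as in 7.87% of all tested genes. The part of these markers, of PHF8 and of the share of ribosomal protein mRNAs in the difference of the cycle genes was not tested.

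The tables list 1 to 15 transcripts for each of the 48 genes, with a median of 7. The transcript with the highest mean level held over 50% of the gene's TPM in each library for 37 genes and over 90% for 11, and it was protein coding for 47. The exception was MCM7, where the retained-intron transcript MCM7-210 held 67.9% and 60.5% in TGF-β1 replicates 1 and 2, against 66.5% and 61.2% in control replicates 1 and 2. MKI67-202 held 68.7% and 67.7% of MKI67 in TGF-β1 and control replicate 2, against 54.1% and 50.1% in TGF-β1 and control replicate 1. KIF23-202 held 51.9% and 50.7% of KIF23 in TGF-β1 and control replicate 2, against 37.4% and 36.4% in TGF-β1 and control replicate 1. In CCNA2 the share of CCNA2-202 varied without order, with 75.0% and 25.9% in TGF-β1 replicates 1 and 2, against 64.6% and 50.0% in control replicates 1 and 2. These shares are estimates that divide shared reads among transcripts, and they have no test.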

How the data were processed

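Total RNA was made into stranded, ribosomal-RNA-depleted libraries read as 50-bp pairs, per the labels' protocols, although the molecule field says polyA RNA. The authors quantified reads with kallisto, and the genome build was GRCh38, both per the submitters' processing notes; a version of kallisto is not given in the sources used here. Per transcript, the deposited tables give estimated counts, TPM values and effective lengths, per the file headers.

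Of 173259 transcripts, 159239 (91.91%) matched GENCODE release 29 by identifier without version and were summed over 34500 genes; the rest held 2.24% to 2.38% of counts. Gene sums were rounded and tested with edgeR 4.0.16 in R 4.3.3 (quasi-likelihood, TMM, filterByExpr, 14774 genes, Benjamini-Hochberg threshold 0.05), without covariates. CPM and log2 ratios of CPM (prior count 3) were computed from the deposited estimated counts. SE is the log2 fold change over the square root of F, an approximation. DESeq2 1.42.0, limma 3.58.1 on log2(TPM + 1) and the other alternatives are in the closing section. The steps were tested on simulated data. Simulated libraries differed only along the comparison under test, so they do not give the power of the TGF-β1 test here, where replicate numbers also differ. Genes and lists were chosen with earlier results of these data known. The text gives values in all libraries for the 6 genes with the smallest p for TGF-β1, the 6 with the largest replicate fold, the highest of each role, and E2F1, CCND1, CCNE1, CCNE2, CDC25A and CDC6.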

Additional observations from a re-analysis of the deposited data

How the results depend on the processing

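In the comparison of TGF-β1 with control, the 0 genes called by edgeR became 15 with no filter on low counts, 3 with transcript lengths as an offset, 91 by DESeq2 and 0 to 20 when 1 library was left out. In every one of these, 0 of the 48 genes were called. With the replicate number as a block edgeR called 335 of 14774 genes (259 higher, 76 lower) with 0 of the 48 among them. DESeq2, in a fit added after the data were seen, called 245 of the 23178 genes with counts, with 1 of the 48 (CCND1, higher). The labels do not pair the libraries by number. Over 14774 genes the differences between replicate 2 and replicate 1 in the treated and the control libraries had r = 0.678, and each library correlated best with the one of its own number, a hint from only 2 pairs.

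The median log2 fold change of the G1/S genes after TGF-β1 was -0.024 with limma on log2(TPM + 1), and ran from -0.35 to 0.35 when 1 library was left out, while that of the G2/M genes ran from -0.56 to 0.43. The median within replicates 2 was -0.068 for the G1/S genes and -0.11 for the G2/M genes as a ratio of TPM + 1. Single genes turned direction. CCNE2 was at -0.0079 with transcript lengths as an offset and -0.034 with limma. When 1 library was left out, the log2 fold change ran from -0.53 to 0.23 for CDCA8, from -0.17 to 0.44 for E2F2, from -0.30 to 0.57 for CCNE1 and from -0.12 to 0.43 for GINS2. Each fit without 1 library also carries the difference between replicate numbers.

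Between replicate numbers, all 24 G2/M genes were called lower under each alternative run, and their median ran from -0.94 to -0.81 when 1 library was left out. The 5524 genes called became 3542 with limma, 3522 by DESeq2 with treatment as a term, and 3018 to 4020 when 1 library was left out. The share called higher was 29.6% with limma, against 43.8% in edgeR. CCND1 was the 1 G1/S gene called higher with treatment as a term, by edgeR and by DESeq2, and the number called higher was 0 to 1 when 1 library was left out. Where not stated, the cause was not tested.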
